A study of Homo sapiens with 8 samples.

Results

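NF-kB is a family of dimeric transcription factors whose 5 subunits (RELA, RELB, REL, NFKB1 and NFKB2) are held inactive in the cytoplasm by inhibitors of the IkB class. The members described here are those subunits, 3 IkB inhibitor genes (NFKBIA, NFKBIB and NFKBIE) and 2 genes of ubiquitin enzymes that set the pathway's strength (TNFAIP3 and BIRC3). They were chosen by gene name, 10 of the 58735 genes in the deposited table, and each name matched 1 row. All 10 passed the filter for testing (a mean of at least 1 FPKM over the 8 libraries), which left 11620 genes. REL passed it through the DNMT3A libraries, since its control mean was 0.918 FPKM.

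In resting cells IkB proteins cover the signals that send NF-kB dimers to the nucleus. A signal from tumour necrosis factor, interleukin-1 or Toll-like receptors activates the IkB kinase complex, which marks IkB for destruction, and the freed dimers switch on genes of inflammation and survival. NFKBIA and TNFAIP3 are themselves NF-kB targets, which closes a negative feedback loop. In hepatocytes the pathway is known for the acute phase response and for protection from cell death caused by tumour necrosis factor.

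Poly(A) RNA was sequenced from HepG2, an established human hepatocellular carcinoma line. The 4 DNMT3A libraries came from cells carrying a lentivirus that overexpresses DNMT3A, an enzyme that places new methyl groups on DNA. The 4 control libraries came from HepG2 cells given a control lentivirus, with the genotype labelled WT. Library names of both groups carry EGFP in the vector's name. The vector's promoter, the time after infection and whether cells were a pool or a clone are not stated in the labels. Nor do the labels tie replicate numbers to separate infections or cultures, and p-values therefore measure only how these libraries spread, which may be technical.

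Whole reads recovered from the FPKM values summed to 15911019 to 17677093 per library. DNMT3A itself was at 9.75, 10.2, 8.51 and 7.26 FPKM in the DNMT3A libraries, against 3.62, 3.89, 3.45 and 3.64 FPKM in the controls. Its log2 fold change was 1.09 (limma adjusted p = 0.000122). All 9 hepatocyte and HepG2 markers were tested, and 3 of them rose. AFP averaged 1143 ± 192 FPKM in DNMT3A libraries and 370 ± 9.28 FPKM in controls, FGB 107 ± 9.13 and 34.5 ± 1.52 FPKM, and TTR 17.1 ± 1.30 and 6.04 ± 1.24 FPKM (SD, n = 4 each). Their log2 fold changes were 1.61, 1.61 and 1.38 (limma adjusted p = 4.8e-05, 5.1e-06 and 8.7e-05 in that order), and they were named after their values were seen. The other 6 did not pass. The sum of the 9, mostly ALB, was 8772 to 11472 FPKM in DNMT3A libraries and 9165 to 9708.5 FPKM in controls. No fibroblast marker (of 8) or endothelial marker (of 6) passed the filter. Summed levels of fibroblast markers were 0.509 to 0.774 FPKM in DNMT3A libraries and 0.387 to 0.684 FPKM in controls, and those of endothelial markers were 0.655 to 0.806 FPKM and 0.526 to 0.646 FPKM. Of 9 leukocyte markers, PTPRC, CD3E and CD163 were listed at 0 in every library, and the 8 other than LYZ summed to 1.64 to 2.44 FPKM in DNMT3A libraries and 2.14 to 2.84 FPKM in controls. LYZ was at 313 to 344 FPKM in DNMT3A libraries and 196 to 263 FPKM in controls, and rose (log2 0.48, limma adjusted p = 0.00812). FCER1G, the only other leukocyte marker tested, fell. It averaged 1.23 FPKM in DNMT3A libraries and 1.81 FPKM in controls (log2 -0.33, limma adjusted p = 0.0291). Both were likewise named after their values were seen. The part of these differences in the results was not tested.

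Because several members are known NF-kB targets, their promoters are shown first. RefSeq promoter windows (GRCh38.p14, 250 bases before to 50 bases after an annotated start) were found for 8 of the 10 members, 13 windows in all, and none for RELB and NFKBIE. The windows below belong to the pair of members that rose and had an entry. Capitals mark matches to the 10-base kappa B consensus, searched on both strands, and each window is written 5′ to 3′ on the strand of its gene.
NFKBIA (chr14:35404700-35404999, minus strand): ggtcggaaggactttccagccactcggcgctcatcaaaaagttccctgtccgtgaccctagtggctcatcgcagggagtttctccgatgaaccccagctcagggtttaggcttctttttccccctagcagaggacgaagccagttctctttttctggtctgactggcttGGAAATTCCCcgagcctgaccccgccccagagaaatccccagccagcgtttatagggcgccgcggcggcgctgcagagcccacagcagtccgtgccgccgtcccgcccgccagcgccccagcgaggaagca
BIRC3 (chr11:102317234-102317533, plus strand): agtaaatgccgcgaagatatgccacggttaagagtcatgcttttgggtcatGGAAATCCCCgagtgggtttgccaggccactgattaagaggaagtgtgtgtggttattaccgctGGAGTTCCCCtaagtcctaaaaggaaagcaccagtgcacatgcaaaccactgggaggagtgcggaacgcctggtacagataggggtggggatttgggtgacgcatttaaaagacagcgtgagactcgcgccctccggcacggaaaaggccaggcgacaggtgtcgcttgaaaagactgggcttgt

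In NFKBIA the match GGAAATTCCC lay at -81 to -72, counted from the annotated start base as 0. In BIRC3 the matches lay at -199 to -190 (GGAAATCCCC) and at -135 to -126 (GGAGTTCCCC). TNFAIP3 had a closely spaced pair, GGAAAGTCCC at -67 to -58 and GGAAATCCCC at -55 to -46. NFKB1 had GGGAATTTCC at -49 to -40 from 1 of its 2 starts, and REL had GGGAAATTCC at -47 to -38. NFKB2 had matches in 2 of 3 windows, among them GGGACTTTCC at -21 to -12 from a start 1595 bases downstream of its deposited gene start. The NFKB2 window at that gene start held none. NFKBIB had matches in 1 of 2 windows, among them GGGAATTTCC at -28 to -19 from a start 269 bases downstream of its deposited gene start. Some of these matches overlap or read as a match on both strands, and such stretches are each given once. Neither window of RELA held one. In all 7 of the 8 members with an entry had at least 1 match, against 13.3% of all 27305 genes with an entry and 16.9% of the 8258 tested ones. The members were known to include NF-kB targets, so this count is a description. A match is a stretch of letters and not a measured binding site, and genes with several windows have more chances to hold one. CpG sites, the bases DNMT3A methylates, numbered 22 in the NFKBIA window and 15 in the BIRC3 window, against a median of 26 over the 11897 windows of tested genes. Across the members' 13 windows the count ran from 7 to 48, and both of these were windows of RELA at different starts. DNA methylation itself was not analysed here.

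Of the 10 members, 2 rose (NFKBIA and BIRC3), 1 fell (RELB) and 7 did not pass the test. Among all tested genes 20.6% passed it, 9.93% higher and 10.6% lower in the DNMT3A libraries. The test was limma on log2(FPKM + 1) with Benjamini-Hochberg adjustment over the 11620 genes and a threshold of 0.05. The median log2 fold change was 0.05 over the members and -0.01 over all tested genes. Every fold change here is DNMT3A minus control on that scale, which understates changes of genes near 1 FPKM. In bulk RNA, more cells with a transcript and more transcript per cell cannot be told apart.

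**Figure D1:**
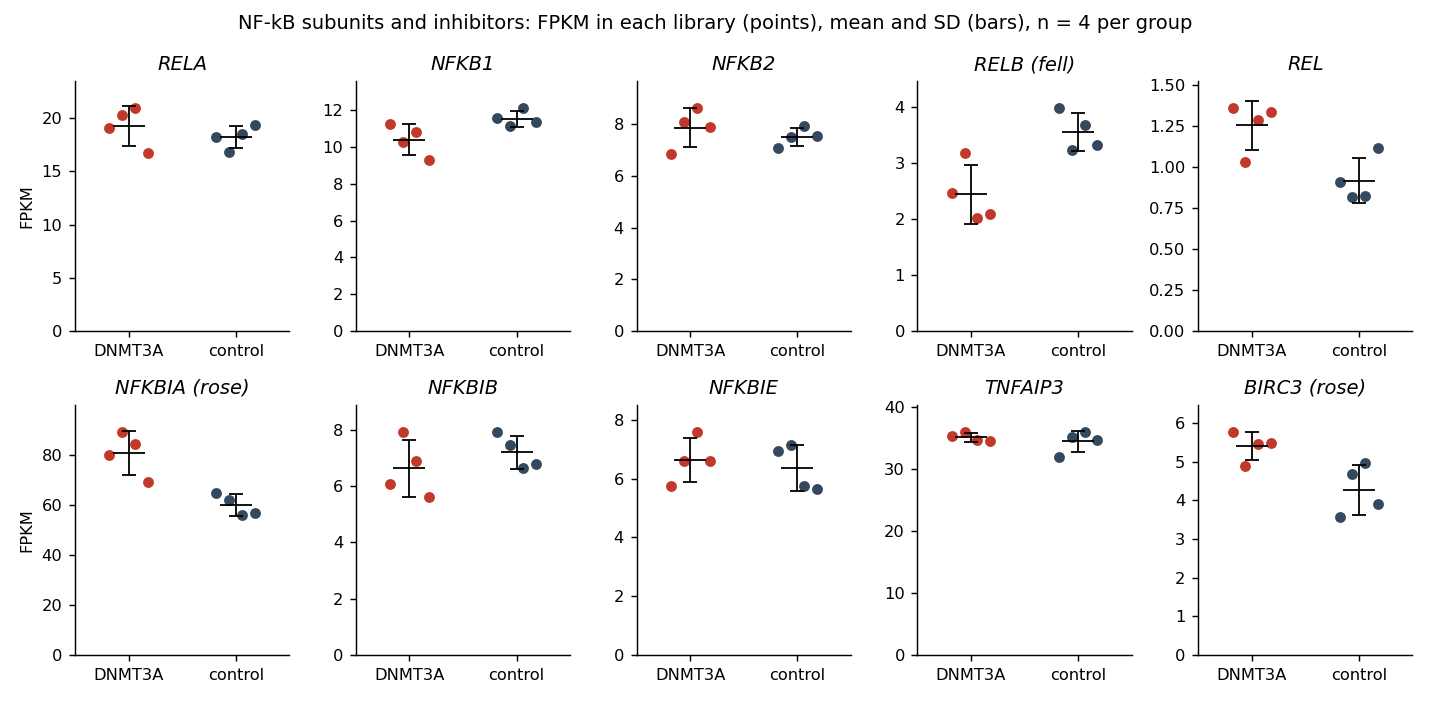
FPKM (vertical axes, each starting at 0) of the 10 members in the 4 DNMT3A and 4 control libraries. Points are libraries and bars are the mean and SD. The DNMT3A points of NFKBIA all lie above its control points and those of RELB all below, while the groups of the other 8 members overlap. Among all tested genes the groups did not overlap for 25.1%.

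RELA encodes p65, the main activating subunit of the classical pathway. Its level was 19.0, 20.2, 20.9 and 16.7 FPKM in DNMT3A libraries 1 to 4, against 18.2, 16.8, 18.5 and 19.3 FPKM in the controls. The groups overlapped, with the lowest value of all in DNMT3A library 4. The log2 fold change of RELA was 0.07 (95% CI -0.10 to 0.24, limma adjusted p = 0.542).

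NFKB1 encodes p105, which is processed to the p50 partner of p65. NFKB1 had 11.2, 10.3, 10.8 and 9.26 FPKM in the DNMT3A libraries, against 11.6, 11.1, 12.1 and 11.3 FPKM in the controls. Every DNMT3A library lay below the control mean, but DNMT3A library 1 was above the lowest control. Its log2 fold change was -0.14 (95% CI -0.28 to 0.00, limma adjusted p = 0.151). NFKB2, whose p100 product acts as an inhibitor until it is processed to p52, averaged 7.87 ± 0.749 FPKM in the DNMT3A libraries and 7.51 ± 0.341 FPKM in the controls (SD, n = 4 each). That difference was 0.06 on the log2 scale (95% CI -0.10 to 0.21, limma adjusted p = 0.610). Gene-level FPKM covers precursor and processed forms alike, since p50 and p52 arise from the protein and not from a separate measured transcript.

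RELB, the subunit that pairs with p52 in the alternative pathway, was the member that fell. It was at 2.47, 3.18, 2.03 and 2.10 FPKM in the DNMT3A libraries, against 3.99, 3.23, 3.68 and 3.33 FPKM in the controls. The groups did not overlap, although DNMT3A library 2 at 3.18 FPKM came close to control library 2 at 3.23 FPKM. Non-overlap was seen for 25.1% of all tested genes. The ratio of the means was 0.687, and the log2 fold change was -0.41 (SE 0.11, 95% CI -0.65 to -0.17, limma adjusted p = 0.0248). The two-sided exact permutation p was 0.0286, the smallest that 70 assignments of 4 and 4 libraries can give. RELB rested on 107 to 193 reads per library. Its spread was 21.7% of the mean in DNMT3A libraries and 9.73% in controls, where counting error alone would give about 8.02%. The call ended when library 1 or 3 of either group was left out (limma adjusted p from 0.0522 to 0.0685), and without the FPKM filter (0.0876).

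REL, which encodes the c-Rel subunit best known from lymphocytes, was the lowest member. It had 1.36, 1.03, 1.29 and 1.33 FPKM in the DNMT3A libraries, against 0.910, 0.820, 0.825 and 1.117 FPKM in the controls. The 4 DNMT3A libraries lay above the control mean, but DNMT3A library 2 fell below control library 4, so the groups overlapped. The log2 fold change was 0.23 (95% CI 0.03 to 0.44, limma adjusted p = 0.1002) and the ratio of means was 1.37. REL had met the filter through the DNMT3A libraries, the group where it was higher. Calls made on REL under other settings therefore cannot be used as support for a difference, and they do not show its absence. With voom on the recovered reads (172 to 313 per library) its log2 fold change was larger, at 0.47 (limma adjusted p = 0.0117), and with no filter the adjusted p was 0.213.

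The subunits' summed level was 41.2 ± 2.85 FPKM in DNMT3A libraries and 41.7 ± 1.62 FPKM in controls (SD, n = 4 each). Within that sum RELA took 46.6% ± 1.38 in DNMT3A libraries and 43.6% ± 1.22 in controls. RELB took 5.94% ± 1.16 and 8.53% ± 0.745, and its range of 4.64% to 7.44% in DNMT3A libraries lay below the 7.82% to 9.55% of controls. NFKB1 took 25.2% ± 1.496 in DNMT3A libraries and 27.7% ± 0.756 in controls. These shares are of FPKM, which is scaled by length, and describe the same values as above.

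NFKBIA encodes IkB-alpha, the inhibitor that is degraded and resynthesised fastest on stimulation. It lies on the minus strand of hg38 at chr14:35401511-35404749. Its level was 80.0, 89.3, 84.4 and 69.1 FPKM in DNMT3A libraries 1 to 4, against 64.8, 62.0, 55.9 and 56.6 FPKM in control libraries 1 to 4. The groups did not overlap, and the gap between the lowest DNMT3A library and the highest control was small beside the range. The mean was 80.7 ± 8.63 FPKM in DNMT3A libraries and 59.8 ± 4.31 FPKM in controls (SD, n = 4 each). Its log2 fold change was 0.42 (SE 0.09, 95% CI 0.23 to 0.61, limma adjusted p = 0.00855), with a two-sided exact permutation p of 0.0286. NFKBIA was covered by 2098 to 3879 reads per library, and it passed the threshold under every alternative whose genes included it.

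NFKBIB and NFKBIE encode IkB-beta and IkB-epsilon, inhibitors that respond more slowly. NFKBIB had 6.09, 7.94, 6.88 and 5.60 FPKM in DNMT3A libraries, against 7.92, 7.45, 6.66 and 6.77 FPKM in controls. The groups overlapped fully, with the highest and the lowest values both among DNMT3A libraries. Its log2 fold change was -0.11 (95% CI -0.33 to 0.10, limma adjusted p = 0.448). A stretch of 163 bases of NFKBIB overlaps SIRT2 on the other strand, and since no strand-marking step is stated, reads there cannot be told apart. NFKBIE had 5.75, 6.60, 7.60 and 6.61 FPKM in DNMT3A libraries, against 6.93, 7.16, 5.75 and 5.66 FPKM in controls. These groups overlapped too, and the log2 fold change was 0.05 (95% CI -0.16 to 0.26, limma adjusted p = 0.732). The 3 inhibitors summed to 94.0 ± 9.78 FPKM in DNMT3A libraries and 73.4 ± 5.63 FPKM in controls. NFKBIA took 85.9% ± 0.935 of that sum in DNMT3A libraries and 81.5% ± 0.478 in controls, with ranges of 85.0% to 87.1% and 80.9% to 82.0%.

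TNFAIP3 encodes A20, an enzyme that edits ubiquitin chains and shuts the pathway off. It was at 35.2, 35.9, 34.5 and 34.5 FPKM in DNMT3A libraries, against 31.9, 35.02, 36.0 and 34.6 FPKM in controls. All 4 DNMT3A libraries fell within the range of the controls. Its log2 fold change was 0.03 (95% CI -0.09 to 0.14, limma adjusted p = 0.744), the narrowest interval of the 10. The spread was 1.89% of the mean in DNMT3A libraries, the smallest of the 10 there, and 5.03% in controls, where NFKB1 (3.76%) and NFKB2 (4.54%) spread less. Counting error alone would give about 1.82%. An antisense gene, AL357060.1, overlaps 1046 bases of TNFAIP3 at 0.761 FPKM in DNMT3A libraries and 0.583 FPKM in controls.

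BIRC3 encodes cIAP2, a ubiquitin ligase at the tumour necrosis factor receptor that also restrains the alternative pathway. It was at 5.78, 4.90, 5.46 and 5.49 FPKM in DNMT3A libraries, against 3.57, 4.67, 4.95 and 3.90 FPKM in controls. All DNMT3A libraries lay above the control mean, but DNMT3A library 2 was just below control library 3, so the groups overlapped. The ratio of means was 1.27, and the log2 fold change was 0.29 (SE 0.09, 95% CI 0.08 to 0.49, limma adjusted p = 0.049986). The two-sided exact permutation p was 0.0571. That adjusted p is at the threshold, and the call ended on leaving out DNMT3A library 1, 3 or 4, or library 1, 2 or 4 of the controls (limma adjusted p from 0.0617 to 0.120). It ended as well without a filter (0.138), with a filter of 0.3 FPKM (0.0641), without a trend (0.0544) and without chromosomes 13 and 14 (0.0527).

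BIRC2, the paralog that encodes cIAP1 and is known to lie beside BIRC3, had 21.4, 18.6, 22.6 and 25.2 FPKM in DNMT3A libraries, against 16.3, 18.7, 18.6 and 18.1 FPKM in controls. DNMT3A library 2 sat among the controls and the other 3 above them. Its log2 fold change was 0.27 (limma adjusted p = 0.0543). Without DNMT3A library 2 it passed the threshold (limma adjusted p = 0.0134). With another library left out its limma adjusted p reached 0.128, and under the other alternatives 0.142. BIRC2 was picked out after its values were seen.

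By level the order in controls was NFKBIA, TNFAIP3, RELA, NFKB1, NFKB2, NFKBIB, NFKBIE, BIRC3, RELB and REL. Neighbours in that order had separate ranges except NFKB2 with NFKBIB, NFKBIB with NFKBIE, and BIRC3 with RELB. In DNMT3A libraries NFKBIE and NFKBIB changed places at 6.64 and 6.63 FPKM, a difference within their spread. There NFKB2, NFKBIE, NFKBIB and BIRC3 each overlapped the next, and BIRC3 (5.405 FPKM) and RELB (2.45 FPKM) no longer did. NFKBIA stood above 96.1% of tested genes by mean FPKM and REL above 1.83%.

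NFKBIA starts in a stretch of chromosome 14 where most tested genes were higher in DNMT3A libraries. Of the 113 other tested genes starting between 20 and 45 Mb, 87 rose and 0 fell. Their median log2 fold change was 0.50, with quartiles of 0.34 and 0.64. The bounds of that stretch came from earlier results of these data. NFKBIA, at 0.42, was above 45 of the 113. Among its 20 nearest tested genes, 10 on each side and spanning 4.63 Mb, 15 rose and 0 fell, and their median was 0.54.

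The nearest tested genes on 1 side were KIAA0391 (log2 fold change 0.65), PPP2R3C (0.29) and FAM177A1 (0.37), all of which rose. On the other side RALGAPA1 (0.73) and BRMS1L (0.54) rose, and the processed pseudogene DNAJC8P1 (0.43) did not pass the test (limma adjusted p = 0.196).

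Set against the median of its 20 neighbours in the same library, NFKBIA was 2.80, 3.05, 2.89 and 2.59 log2 units higher in DNMT3A libraries 1 to 4, against 2.96, 2.81, 2.75 and 2.79 in control libraries 1 to 4. The control values lay inside the range of the DNMT3A values. The difference between the groups was 0.01 log2 units (SE 0.11, two-sided exact permutation p = 0.971). With 5 or 20 neighbours on each side it was -0.12 and -0.20, and against the whole stretch it was -0.18 (two-sided exact permutation p = 0.486, 0.171 and 0.114 in that order). Relative to its neighbours NFKBIA showed no difference that passed a test. The part of the raised stretch in the rise of NFKBIA was not tested.

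**Figure D2:**
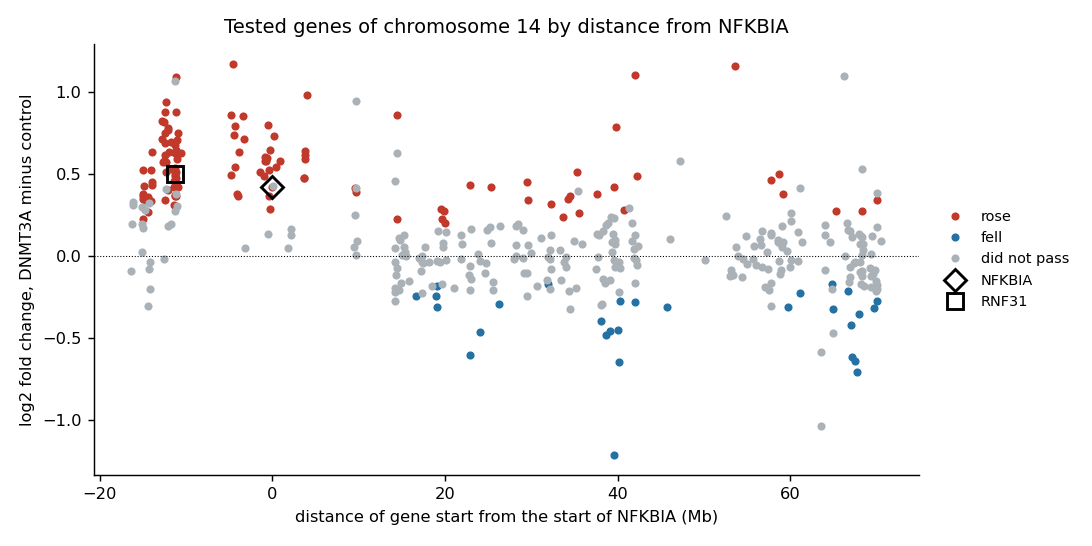
Log2 fold change (vertical axis, DNMT3A minus control) of the tested genes of chromosome 14 by distance of their start from that of NFKBIA (horizontal axis, Mb). Points are genes, coloured by call. NFKBIA (0.42) and RNF31 (0.50) lie among the raised genes at the left of the plot.

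The same comparison with 20 nearest tested genes was made for the other members, as a description. RELB, at -0.41, was below all 20 of its neighbours on chromosome 19, which ran from -0.36 to 0.33 with a median of -0.08. BIRC3, at 0.29, was above all 20 of its neighbours on chromosome 11, which ran from -0.38 to 0.27. The neighbour closest in value to RELB was BCL3, a listed pathway gene (-0.36, limma adjusted p = 0.0549), named after its value was seen. For BIRC3 it was BIRC2 (0.27). Both members thus differed little from 1 of their neighbours. For the other 7 members the value lay inside the range of the neighbours, whose medians ran from -0.10 to 0.00.

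**Figure D3:**
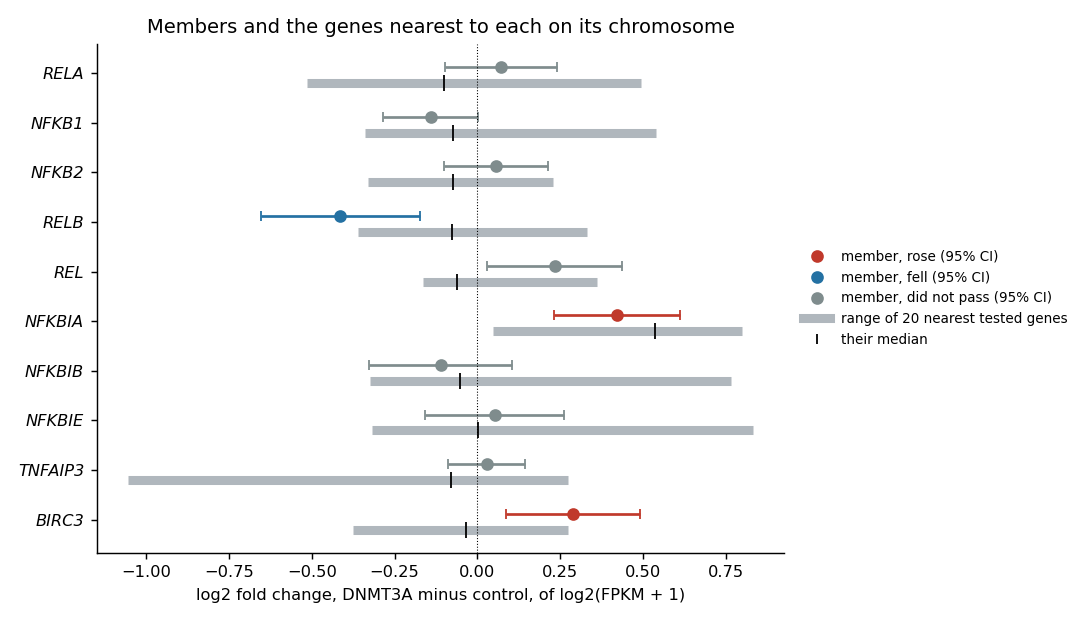
Log2 fold change (horizontal axis, DNMT3A minus control) of each member with its 95% confidence interval, above the range (grey bar) and median (tick) of its 20 nearest tested genes. NFKBIA lies within a raised range. RELB (-0.41) and BIRC3 (0.29) lie just outside the ranges of their neighbours, whose nearer ends are BCL3 (-0.36) and BIRC2 (0.27).

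Other genes of the pathway came from 7 lists ordered by role, 131 genes in all, of which 89 were tested. Of these 15 rose and 7 fell, or 24.7%, against 20.6% of all tested genes, and their median log2 fold change was 0.03. Ligands were mostly below the filter. Of 12 listed only TNFSF12 was tested, at 1.93 to 2.33 FPKM in DNMT3A libraries and 1.78 to 3.01 FPKM in controls (limma adjusted p = 0.983). TNFSF12 shares exons with a read-through gene, so its value is uncertain.

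Of 8 tested receptors 2 rose and 1 fell, and 5 did not pass. Both that rose belong to the interleukin-1 receptor, its signalling chain IL1R1 and its accessory chain IL1RAP. IL1R1 had 16.1, 14.4, 14.8 and 14.4 FPKM in DNMT3A libraries, against 10.9, 9.57, 9.94 and 11.7 FPKM in controls (log2 0.47, limma adjusted p = 0.00234). IL1RAP had 3.71, 2.74, 3.46 and 3.40 FPKM in DNMT3A libraries, against 2.12, 2.21, 2.15 and 2.29 FPKM in controls (log2 0.43, limma adjusted p = 0.00551). Neither pair of groups overlapped. TNFRSF11A, which encodes the receptor RANK, fell to 1.77 ± 0.0462 FPKM in DNMT3A libraries, against 2.36 ± 0.139 FPKM in controls (SD, n = 4 each; limma adjusted p = 0.0152). The tumour necrosis factor receptor TNFRSF1A averaged 19.8 ± 1.18 FPKM in DNMT3A libraries and 19.3 ± 1.08 FPKM in controls (limma adjusted p = 0.687).

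Of 20 tested adaptors and ubiquitin ligases 3 rose, 3 fell and 14 did not pass. RNF31, the catalytic subunit of the linear ubiquitin ligase complex, rose by 0.50 on the log2 scale (limma adjusted p = 0.00381). It is the 1 listed pathway gene besides NFKBIA in the raised stretch of chromosome 14. PELI1, a ubiquitin ligase of interleukin-1 and Toll-like receptor signalling, rose by 0.38 (limma adjusted p = 0.00701). TRAF2, which brings cIAP1 and cIAP2 to receptors, rose by 0.31 (limma adjusted p = 0.0259). TRADD, the adaptor of the tumour necrosis factor receptor, fell by 0.29 on the log2 scale (limma adjusted p = 0.0443). RIPK1, a kinase of the tumour necrosis factor receptor complex, and IRAK4, a kinase of interleukin-1 and Toll-like receptor signalling, also fell. They had log2 fold changes of -0.19 and -0.27 (limma adjusted p = 0.0462 and 0.049986). Both were named after their values were seen. RBCK1 and IRAK1, the most abundant of this list, had log2 fold changes of -0.01 and -0.08 (limma adjusted p = 0.936 and 0.584).

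Of 11 tested kinases and their partners 2 rose and 0 fell. IKBKE, a kinase of this list, was at -0.32 (limma adjusted p = 0.0546) and was named after its value was seen. The number that fell was 1 with quantile normalization, among protein-coding genes or with voom, and 2 with array weights. TBK1, a kinase related to the IkB kinases, rose by 0.33 (limma adjusted p = 0.0116), and TAB3, an adaptor of the kinase TAK1, rose by 0.22 (limma adjusted p = 0.0338). TAB2, its relative, was at -0.17 (limma adjusted p = 0.116), and passed without DNMT3A library 4 (0.0352). The limma adjusted p of TAB2 reached 0.224 with another library left out and 0.236 under the other alternatives. None of 10 tested genes of the machinery that ubiquitinates IkB passed limma's test. Of these 5 had an unadjusted limma p under 0.05, and 2 passed with voom on the recovered reads. Among them the scaffold CUL1 was 31.7 ± 2.10 FPKM in DNMT3A libraries and 35.5 ± 1.55 FPKM in controls (limma adjusted p = 0.0941).

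Of 16 tested inhibitors outside the members 4 rose and 1 fell. NFKBIZ, a nuclear IkB protein, rose by 0.47 (limma adjusted p = 0.008445). It was at 7.74, 7.87, 9.17 and 10.8 FPKM in DNMT3A libraries, against 5.67, 6.03, 6.15 and 6.52 FPKM in controls, with no overlap. NKIRAS2, a small GTPase that binds IkB-beta, rose by 0.25 (limma adjusted p = 0.0417), and ITCH, a ubiquitin ligase that works with A20, by 0.22 (limma adjusted p = 0.0339). ZC3H12A, an RNase that degrades inflammatory transcripts, rose by 0.22 (limma adjusted p = 0.0421) and was named after its value was seen. TAX1BP1, an adaptor of A20, fell to 15.5 ± 1.03 FPKM in DNMT3A libraries, against 19.6 ± 0.439 FPKM in controls (SD, n = 4 each; limma adjusted p = 0.00487). TNIP1, a partner of A20, was at a log2 of -0.04 (limma adjusted p = 0.731).

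Of 42 listed targets 23 were tested, and the others were below the filter, with VCAM1, PTX3 and CCL2 at 0 in every library. Of the 23 tested targets 4 rose, 2 fell and 17 did not pass. ZFP36, which speeds decay of inflammatory messages, had 6.64, 8.12, 5.78 and 4.44 FPKM in DNMT3A libraries, against 2.94, 3.64, 3.83 and 2.49 FPKM in controls (log2 0.77, limma adjusted p = 0.00911). CSF1, a growth factor of macrophages, had 5.93, 8.39, 6.93 and 5.47 FPKM in DNMT3A libraries, against 3.67, 3.70, 3.74 and 3.85 FPKM in controls (log2 0.68, limma adjusted p = 0.00254). KLF6 (log2 0.48, limma adjusted p = 0.00407) and complement factor B (CFB, log2 0.41, limma adjusted p = 0.0233) rose too, and were named after their values were seen.

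LCN2, which encodes the iron-binding acute phase protein lipocalin-2, fell to 2.83, 3.25, 2.74 and 2.24 FPKM in DNMT3A libraries, against 6.01, 6.14, 5.53 and 5.15 FPKM in controls (log2 -0.84, limma adjusted p = 0.000382). CD83 fell to 3.67, 3.04, 3.20 and 3.03 FPKM in DNMT3A libraries, against 5.07, 4.94, 5.17 and 5.24 FPKM in controls (log2 -0.53, limma adjusted p = 0.000747). The most abundant targets did not pass the test. Complement C3 averaged 328 ± 20.2 FPKM in DNMT3A libraries and 300 ± 28.7 FPKM in controls, and the chemokine CCL20 125 ± 24.8 and 91.8 ± 7.53 FPKM (SD, n = 4 each; limma adjusted p = 0.262 and 0.0528). CCL20 passed the threshold without DNMT3A library 2 (limma adjusted p = 0.00712) and with voom on the recovered reads (0.0101). Its limma adjusted p reached 0.132 with another library left out and 0.162 under the other alternatives.

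**Figure D4:**
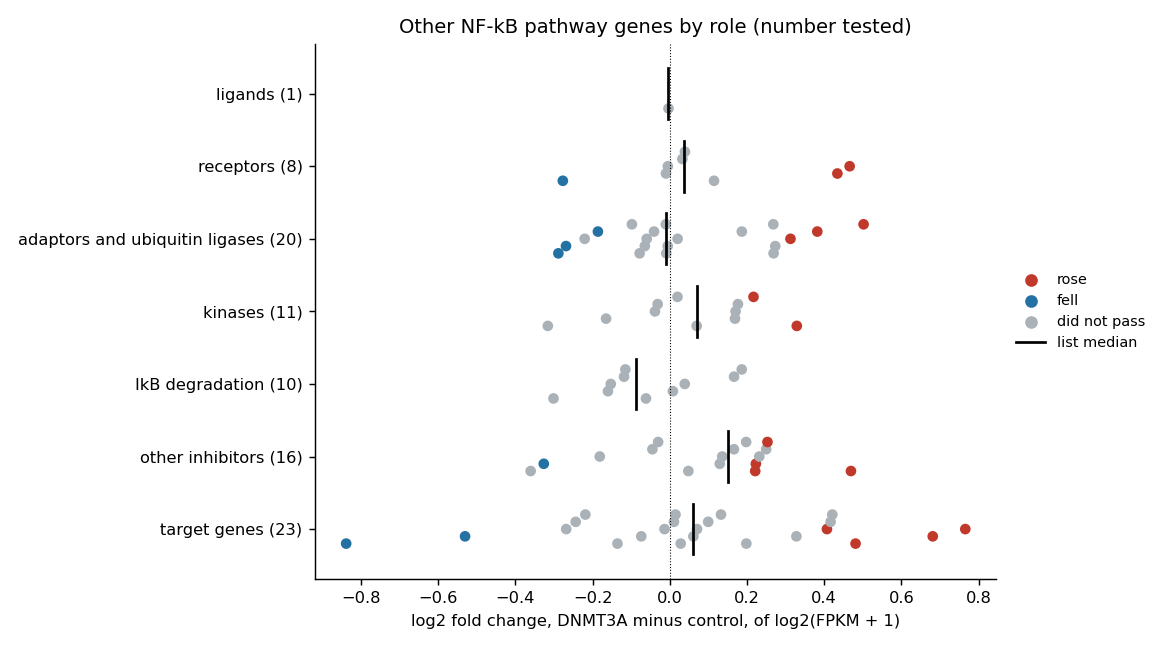
Log2 fold change (horizontal axis, DNMT3A minus control) of 89 tested pathway genes outside the 10 members, in 7 lists by role with the number tested. Points are genes coloured by call and the black line is the list's median; in the adaptor, inhibitor, receptor and target lists some genes rose and some fell.

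Several of these calls lay near the threshold and were lost when 1 library was left out, while the fold changes kept their direction. With each library left out in turn the log2 fold change ran from -0.34 to -0.23 for TRADD, from -0.32 to -0.23 for IRAK4, from -0.21 to -0.16 for RIPK1 and from 0.19 to 0.31 for NKIRAS2. It ran from 0.18 to 0.26 for TAB3, from 0.19 to 0.27 for ITCH, from 0.19 to 0.25 for ZC3H12A, from 0.24 to 0.35 for TRAF2 and from 0.35 to 0.49 for CFB. Leaving out 1 library ended the call of TRAF2 (control library 1 or 3, limma adjusted p = 0.0666 to 0.0745), CFB (DNMT3A library 2, or 1, 2 or 3 of the controls, 0.0513 to 0.0650) and ZC3H12A (DNMT3A library 2 or 3, or 1, 3 or 4 of the controls, 0.0620 to 0.120). It ended those of TAB3 (0.0622 to 0.0881) and ITCH (0.0621 to 0.0946) without DNMT3A library 1, 3 or 4, or 1, 2 or 3 of the controls, and that of RIPK1 (0.0669 to 0.134) without library 1, 2 or 3 of either group. TRADD kept its call only without control library 3 (otherwise 0.0539 to 0.113), IRAK4 only without control library 1 (0.0539 to 0.130) and NKIRAS2 only without DNMT3A library 4 (0.0627 to 0.102). Without a filter these 9 genes also missed the threshold (limma adjusted p = 0.0644 to 0.129).

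Over the 8 libraries the tested genes whose log2(FPKM + 1) followed NFKBIA most closely were TRIM16L (Pearson r = 0.982), PODXL2 (0.978) and B4GALT3 (0.9753). For RELA they were HDAC6 (0.970), the pseudogene TOMM20P4 (0.931) and THRA (0.928). These are the highest of 11619 values each, over 8 libraries that share the group contrast and library depth, and no test was made.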

How the data were processed

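Poly(A) RNA of 8 HepG2 libraries was captured on poly-T beads, per the labels' protocols, and HISAT2 2.0.5 and hg38 are named in the submitters' processing notes. No label or header names the counting program. Per the file headers the authors deposited FPKM, 1 column for each library, so the library total and gene length are already divided out. Multiplied by exonic length, 100% of positive values came out as whole reads (tolerance 0.01 of a read). Libraries of a group differed by a chi-square of 4.26 to 21.6 per degree of freedom, so none was a duplicate. Pairs across the groups differed by 18.2 to 31.5. DNMT3A libraries 2 and 4, the pair at 21.6, were thus as unlike as some pairs across the groups.

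Groups and replicate numbers came from sample titles. Genes with a mean of at least 1 FPKM were tested on log2(FPKM + 1) with limma 3.58.1 in R 4.3.3 (intensity trend, Benjamini-Hochberg adjustment over 11620 genes), a procedure tested on simulated data. Single values were compared with two-sided exact permutation tests. Neighbours were the 10 tested genes nearest by start on each side. Beside the members and DNMT3A, the text could name, from each list, at most 4 called genes (ranked by size of change) and at most 2 uncalled ones (ranked by mean FPKM), the 3 nearest tested genes on each side of NFKBIA and the 3 genes most like NFKBIA or RELA. Members and lists were chosen with earlier results of these data known. Alternatives were other pseudocounts, filters, scalings and weights, no trend, a replicate block, voom on recovered reads, gene subsets and leaving out each library.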

Additional observations from a re-analysis of the deposited data

Results flagged for a closer look

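In 4 of 106 groups of 4 libraries, over 53 of the values given above, 1 library stood far from the other 3. By chance about 1 in 20 groups does so, here 5.3. KIAA0391, a neighbour of NFKBIA, was at 3.54 FPKM in DNMT3A library 4 and at 2.35 to 2.45 FPKM in the other DNMT3A libraries. RIPK1 was at 6.16 FPKM in the same library and at 5.63 to 5.72 FPKM in the others. TRADD was at 2.13 FPKM in DNMT3A library 2, against 2.66 to 2.69 FPKM in the others. TNFRSF1A was at 20.9 FPKM in control library 1, against 18.7 to 18.8 FPKM in the other controls. None of the 10 members had such a library in either group.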

How the results depend on the processing

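NFKBIA rose under every alternative that included it (log2 fold change 0.42 to 0.51, limma adjusted p = 0.000761 to 0.0343), and at 0.37 to 0.49 with each library left out in turn. BIRC3 kept a log2 fold change of 0.29 but missed the threshold with no filter, a filter of 0.3 FPKM, no trend, the replicate block and without chromosomes 13 and 14, and ranged from 0.22 to 0.35 with a library left out. RELB missed it with no filter at -0.41 and ranged from -0.51 to -0.36 with a library left out. REL passed the threshold with array weights (0.27), among protein-coding genes (0.23) and with voom (0.47). It had met the filter through the DNMT3A libraries, so these calls cannot be used as support for a difference. Members higher past the threshold numbered 1 with no filter, a filter of 0.3 FPKM, no trend or the block, 0 without chromosomes 13 and 14 (NFKBIA then not tested), and 1 to 2 with a library left out. Members lower numbered 0 with no filter and 0 to 1 with a library left out.

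Signs turned for small differences. TNFAIP3 was at -0.00255 with array weights and -0.0063 to 0.0493 with a library left out, where NFKBIE ran from -0.00694 to 0.11, IRAK1 from -0.15 to 0.00627, TNIP1 from -0.0838 to 0.0236 and TNFSF12 from -0.0746 to 0.10. TNFSF12 was at 0.000837 with a pseudocount of 0.1, 0.00331 with median-ratio scaling and 0.0280 with voom, and TNIP1 at 0.0376 with array weights. NFKBIA minus its neighbours was -0.12 with 5 and -0.20 with 20 neighbours a side, -0.18 against the whole stretch, -0.0297 with a pseudocount of 0.1 and -0.0659 to 0.0878 with a library left out. The cause of these changes was not tested.

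Over all genes 1154 rose and 1235 fell. With no filter 810 rose and 786 fell, and with array weights 1825 rose and 1931 fell. With a library left out 769 to 1195 rose and 739 to 1248 fell. Deviations of same-numbered libraries correlated at 0.159, -0.0816, -0.0248 and 0.0978, and not every library correlated best with its own number. With 4 libraries in each group, these values cannot show whether same-numbered libraries shared a batch. With the replicate block 913 genes rose and 968 fell, and 1 member rose and 1 fell, BIRC3 being the member lost (limma adjusted p = 0.0893). The block also ended the calls of IRAK4, ITCH, NKIRAS2, RIPK1, TAB3, TRADD and ZC3H12A (limma adjusted p = 0.0526 to 0.112). Adaptors that fell numbered 0 with it and 3 without, other inhibitors that rose 1 and 4, and kinases that rose 1 and 2, while DNAJC8P1 passed (0.0295). In simulated data 34.4% of genes changed by 0.3 on the log2 scale were recovered and 75.2% of those changed by 0.5. Changes the size of most members' could thus be missed there. Far fewer genes were changed there than passed the test here, and only genes above a set level, which leaves out REL and RELB. These rates therefore need not hold for this comparison.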
